A study of Danio rerio with 28 samples.

Results

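A set of 7 zebrafish genes had higher levels in libraries enriched for newly made RNA from mir430-/- embryos injected with miR430 than from wild type embryos. This held at each of the 4 stages sampled. They were chosen by the fitted genotype difference itself: at 256c, 1024c, Oblong and Sphere each passed the threshold in the comparison of the genotypes, always in the same direction. There are 7 of them among 32520 genes of the deposited count table, namely prdx1, ap1s3b, purba, alp3, gbgt1l4, si:ch1073-190k2.1 and si:ch211-168f7.5. All 7 passed the filter on low counts, which left 14732 genes for the tests. Because the genotype difference chose them, its size is given below as a description with no test. Changes between stages within a genotype, genome neighbours and gene families were not used in the choice and were tested. The stage changes use the same libraries as the choice, so they are not independent of it.

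The study followed zygotic genome activation, when an embryo begins to transcribe its own genes. Whole embryos were injected with s4UTP, a sulfur-bearing uridine nucleotide that marks new RNA, and the marked RNA was biotinylated and pulled down on beads. Iodoacetamide (IAA) then alkylated the sulfur so that reverse transcription misreads the base, the chemistry of SLAM-seq. The mir430 locus holds many microRNA genes side by side that are transcribed very early, and the design text sets the comparison up to ask what the loss of a pair of prominent transcription bodies does to activation. The groups were mir430-/- embryos that also received a rescue injection of miR430, at 256c, 1024c, Oblong and Sphere, and wild type embryos at the same stages. Each of these 8 groups had 3 libraries with IAA. Wild type embryos without IAA gave 1 further library per stage. All groups received s4UTP. The miR430 injection was given to the mutant only, so effects of that injection, of the deletion and of the line's genetic background cannot be told apart. Replicates are called biological in the labels, which do not mention clutches. A p-value here rests on the spread between the 3 libraries of a group, estimated over all 8 groups together.

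The 24 IAA libraries held 4960211 to 13803137 counts. Nuclear genes made up 1.22% to 62.6% of them, between 160889 and 4118874 counts, and the rest was mitochondrial. Mitochondrial counts outnumbered nuclear ones except in mutant Sphere replicate 2 and wild type Sphere replicate 3. The nuclear share was higher at Sphere than at 256c in both genotypes, which matters for every statement about stages below. As a check of the labels, the 54 mir430 genes on chromosome 4 summed in the mutant to 61, 73, 29 and 9 counts in stage order, against 42970, 289853, 167904 and 320125 counts in wild type. Levels are given as CPM, the count of a gene scaled to the library's size and corrected by TMM, and for comparison between genes as CPM per kilobase of exon.

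The 7 genes have different known roles. prdx1 encodes a peroxiredoxin, an enzyme that reduces hydrogen peroxide with electrons from thioredoxin. ap1s3b encodes a small (sigma) subunit of adaptor complex 1, which sorts cargo into clathrin-coated vesicles at the trans-Golgi network and endosomes. purba belongs to the Pur proteins, which bind purine-rich single-stranded DNA and RNA. alp3 is named as an alkaline phosphatase, an enzyme class that releases phosphate at the cell surface, and gbgt1l4 as a relative of GBGT1, a glycosyltransferase that in mammals extends globoside glycolipids. No role is given here for si:ch1073-190k2.1 and si:ch211-168f7.5, which keep clone-based names.

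The genes lie on 4 chromosomes, and none is on chromosome 4 with the mir430 cluster. Coordinates are those of GRCz11 as the deposited count table gives them. prdx1 (ENSDARG00000058734) spans chr2:6104378-6115688 on the minus strand with 3479 exonic bases in 7 merged exon blocks. ap1s3b (ENSDARG00000027966) is on the same chromosome, 41.5 Mb away, at chr2:47587238-47620806 on the minus strand with 1079 exonic bases in 5 blocks. purba (ENSDARG00000068822) is a single-block gene of 2888 bases at chr5:13643167-13646054, minus strand. gbgt1l4 (ENSDARG00000068503), 10.1 Mb from purba, spans chr5:23788592-23805387 on the minus strand with 1936 exonic bases in 9 blocks. alp3 (ENSDARG00000098063) spans chr15:44618623-44637492 on the minus strand with 1605 exonic bases in 11 blocks. It sits within the span of gria4a, a glutamate receptor subunit gene on the same strand, without sharing exon bases with it. gria4a itself had 6 counts over all 24 libraries. si:ch1073-190k2.1 (ENSDARG00000097973) is the plus-strand gene of the set, at chr15:46313082-46315233, 1.69 Mb from alp3, with 731 exonic bases in 2 blocks. si:ch211-168f7.5 (ENSDARG00000088195) spans chr14:45365157-45394839 on the minus strand with 3692 exonic bases in 4 blocks. The RefSeq gene table lists 6 of the 7 by symbol, all as protein coding, and si:ch1073-190k2.1 is not listed there by that symbol. No listed neighbour shared exon bases with any of the 7.

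In all, 12 genes met the same rule, 0.0815% of those tested, and the other 5 were ENSDARG00000074085, megf6a, BX901907.4, CR388046.4 and trhde.2. A further 57 genes passed at 3 of the 4 stages. The member nearest the threshold was alp3, with an adjusted p of 0.0447 at 256c in edgeR's quasi-likelihood test with Benjamini-Hochberg adjustment. Just outside by that test were slc25a23b (adjusted p 0.05004 at 256c), BX255935.2 (0.0513 at 1024c), BX511013.1 and zgc:153441 (both 0.0547 at Sphere). At each stage the lowest mutant library lay above the highest wild type library for all 7 genes. Such separation was found for 13.8%, 9.06%, 13.8% and 7.64% of tested genes in stage order, and for 0.815% at all 4 stages together. Since the rule used these same differences, nothing is read from the count. In whole embryos, fewer cells making an RNA and less of it per cell cannot be told apart.

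**Figure D1:**
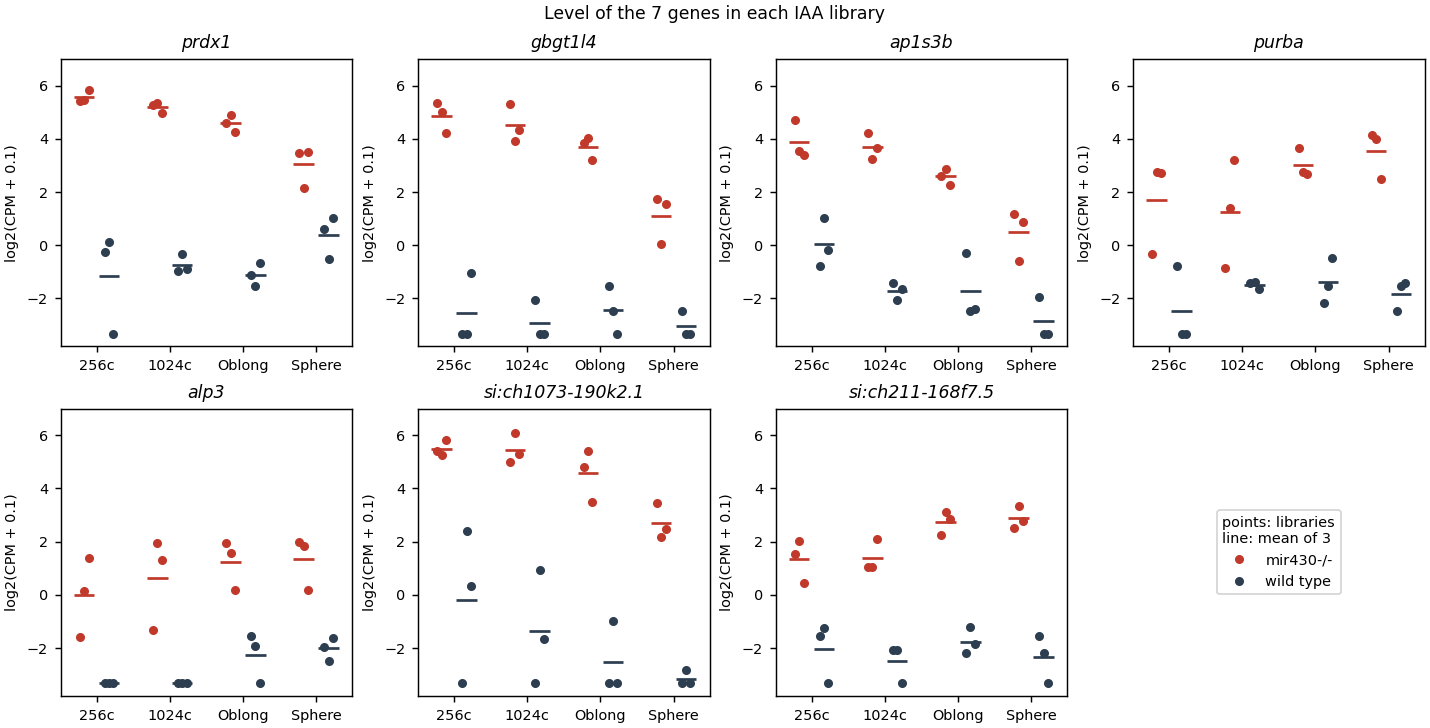
Level of each of the 7 genes in the 24 IAA libraries, as log2(CPM + 0.1), by stage on the horizontal axis, with the 3 mir430-/- libraries left of the 3 wild type libraries. Points are libraries and lines the mean of 3. In every panel and at every stage the mutant points lie above the wild type points. The gap is narrowest for purba at 256c and 1024c, where 1 mutant library is near wild type.

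prdx1 had the smallest fitted genotype difference of the set, at Sphere, after large ones at the earlier stages. Its mutant libraries had, in CPM and for replicates 1 to 3, 43.4, 44.4 and 57.5 at 256c, 38.5, 40.6 and 31.2 at 1024c, 23.9, 29.7 and 19.3 at Oblong, and 10.9, 4.37 and 11.4 at Sphere. Its wild type libraries had, in CPM, 0.733, 0.98 and 0 at 256c, 0.413, 0.703 and 0.438 at 1024c, 0.363, 0.246 and 0.527 at Oblong, and 1.43, 0.605 and 1.96 at Sphere. In CPM, the mutant libraries of each stage lay below all those of the stage before. No single step was called by edgeR's test, and the size of the fall depends on the scaling, as given below. For this and the following genes, the share of all tested genes with stages so separated was not computed. The lowest mutant library at Sphere was still above the highest wild type one. Group means were 48.4 ± 7.87 CPM in the mutant and 0.571 ± 0.51 in wild type at 256c, and 8.91 ± 3.94 in the mutant and 1.33 ± 0.682 in wild type at Sphere (SD, n = 3). The fitted log2 fold, mutant over wild type, was, in stage order, 6.31 ± 0.78, 6.10 ± 0.75, 5.96 ± 0.74 and 2.74 ± 0.62 (SE). These values rest on 93 to 350 counts per mutant library and 0 to 43 per wild type library. The order of the 8 group levels was mutant 256c, 1024c, Oblong and Sphere, then the wild type groups led by Sphere, and the wild type groups overlapped with their neighbours in that order.

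ap1s3b, the adaptor subunit, showed the same descending order in the mutant at a lower level. The mutant libraries had, in CPM, 26.2, 11.5 and 10.5 at 256c, 18.6, 9.26 and 12.7 at 1024c, 6.0, 7.29 and 4.75 at Oblong, and 2.13, 0.563 and 1.75 at Sphere. The wild type libraries had, in CPM, 0.489, 1.96 and 0.777 at 256c, 0.275, 0.141 and 0.219 at 1024c, 0.726, 0.082 and 0.0878 at Oblong, and 0.159, 0 and 0 at Sphere. Wild type was highest at 256c, where its 3 libraries held 2, 6 and 2 counts. Levels of the mutant at 256c and 1024c overlapped, those at 1024c and Oblong and at Oblong and Sphere did not, and the mutant at Sphere overlapped with wild type at 256c. The log2 fold was 3.91 ± 0.82 (SE) at 256c, 5.92 ± 0.92 at 1024c and 4.41 ± 0.84 at Oblong, and it was 5.97 at Oblong without wild type replicate 1 and 4.70 at 256c without wild type replicate 2. At Sphere, where wild type held 2 counts in all, the ratio of scaled counts was 43.3 (interval 11.6 to 363). This and the following intervals are 95% exact binomial intervals and cover counting error only.

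gbgt1l4 had the fewest wild type counts of the set. Its mutant libraries had, in CPM, 40.4, 32.4 and 18.3 at 256c, 39.5, 15.2 and 20.1 at 1024c, 14.1, 16.2 and 9.2 at Oblong, and 3.2, 0.939 and 2.8 at Sphere. Its wild type libraries held, as raw counts, 0, 0 and 1 at 256c, 1, 0 and 0 at 1024c, 2, 1 and 0 at Oblong, and 1, 0 and 0 at Sphere. So 6 counts stood in the 12 wild type libraries together, against 1638 in the 12 mutant ones. Ratios of scaled counts, mutant over wild type, were 292 (interval 52.1 to 11536) at 256c, 485 (interval 86.7 to 19214) at 1024c, 138 (interval 46.9 to 671) at Oblong and 135 (interval 23.9 to 5386) at Sphere, and their intervals overlap. In the mutant the levels at 256c, 1024c and Oblong overlapped with their neighbours in order, and that at Sphere was below the other 3. The gene has relatives nearby on chromosome 5, gbgt1l1, gbgt1l2 and gbgt1l3, and the sources used here do not say how reads matching more than 1 of them were counted.

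si:ch1073-190k2.1 had the highest level of the set per kilobase in the mutant. Its mutant libraries had, in CPM, 42.2, 38.6 and 55.8 at 256c, 32.2, 67 and 38.7 at 1024c, 28.2, 42.5 and 11 at Oblong, and 10.9, 4.46 and 5.52 at Sphere. Its wild type libraries held, as raw counts, 0, 16 and 3 at 256c, 0, 13 and 1 at 1024c, 0, 5 and 0 at Oblong, and 0, 1 and 0 at Sphere. Wild type replicate 2 carried most of these counts, 16, 13, 5 and 1 from 256c to Sphere, and wild type replicate 1 carried 0 at every stage. Mean levels in the mutant were 62.3 ± 12.4, 62.9 ± 25.3, 37.3 ± 21.6 and 9.54 ± 4.76 CPM per kilobase (SD, n = 3) from 256c to Sphere, ahead of the other 6 genes at each stage. The log2 fold was 4.44 ± 1.08 (SE) at 256c, 6.0 ± 1.16 at 1024c and 7.40 ± 1.27 at Oblong. Without wild type replicate 2 of the stage these folds were 6.49, 8.84 and 11.18, the last against wild type libraries at 0, so that its size depends on the prior count. At Sphere, with 1 wild type count, the ratio was 397 (interval 70.9 to 15714).

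purba, the single-stranded nucleic acid binder, had its highest mutant mean at Sphere, though its change from 256c was not called by edgeR's test. Levels in the mutant libraries were, in CPM, 0.696, 6.59 and 6.53 at 256c, 0.449, 2.56 and 9.2 at 1024c, 12.6, 6.6 and 6.23 at Oblong, and 17.6, 15.9 and 5.52 at Sphere. Its wild type libraries had, in CPM, 0.489, 0 and 0 at 256c, 0.275, 0.281 and 0.219 at 1024c, 0.121, 0.246 and 0.614 at Oblong, and 0.0796, 0.242 and 0.273 at Sphere. Mutant replicate 1 was low at 256c and 1024c, with 3 counts at each, and the gap to the highest wild type library was there 0.696 against 0.489 CPM and 0.449 against 0.281 CPM. From Oblong on, all mutant libraries were at 5.52 CPM or more. The log2 fold was 3.91 ± 1.00 (SE) at 1024c, 4.61 ± 0.93 at Oblong and 5.88 ± 0.96 at Sphere, and at 256c the ratio on 2 wild type counts was 25 (interval 6.72 to 209). The fold was 2.42 at 1024c without mutant replicate 3 and 5.39 at Oblong without wild type replicate 3. All 4 mutant stages overlapped with their neighbours in order.

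alp3, the alkaline phosphatase, was the gene with the fewest counts. In the mutant, its libraries had, in CPM, 0.232, 1.01 and 2.54 at 256c, 0.30, 3.74 and 2.37 at 1024c, 3.77, 2.91 and 1.04 at Oblong, and 3.82, 3.47 and 1.04 at Sphere. Its wild type libraries held, as raw counts, 0, 0 and 0 at 256c, 0, 0 and 0 at 1024c, 2, 2 and 0 at Oblong, and 2, 2 and 5 at Sphere. Wild type was at 0 in all 6 libraries of the earlier stages, and mutant replicate 1 had 1 and 2 counts there. Against the 3 counts that a total of 0 allows over a group, the scaled mutant counts were 4.21-fold higher at 256c and 12.7-fold higher at 1024c. These are lower limits on the wild type side only, and leave out the counting error and spread of the mutant libraries. The log2 fold was 4.20 ± 1.04 (SE) at Oblong and 4.07 ± 0.95 at Sphere. Mutant stages overlapped with one another throughout.

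si:ch211-168f7.5 also had its highest mutant mean at Sphere. Mutant libraries had, in CPM, 2.78, 3.93 and 1.27 at 256c, 1.95, 1.97 and 4.18 at 1024c, 4.71, 8.66 and 7.12 at Oblong, and 5.56, 10.1 and 6.69 at Sphere. Its wild type libraries held, as raw counts, 1, 1 and 0 at 256c, 1, 1 and 0 at 1024c, 1, 4 and 2 at Oblong, and 3, 3 and 0 at Sphere. The mutant level at Oblong and Sphere was above that at 256c and 1024c with no overlap, while within each of these pairs the libraries overlapped. The ratio was 13.7 (interval 3.61 to 116) at 256c and 26.5 (interval 6.99 to 225) at 1024c. The log2 fold was 4.92 ± 0.77 (SE) at Oblong and 5.97 ± 0.79 at Sphere. The fold at Sphere was 6.62 without wild type replicate 1. Per kilobase it was the lowest of the 7 in the mutant at 256c and 1024c, with 0.721 and 0.731 CPM per kilobase.

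**Figure D2:**
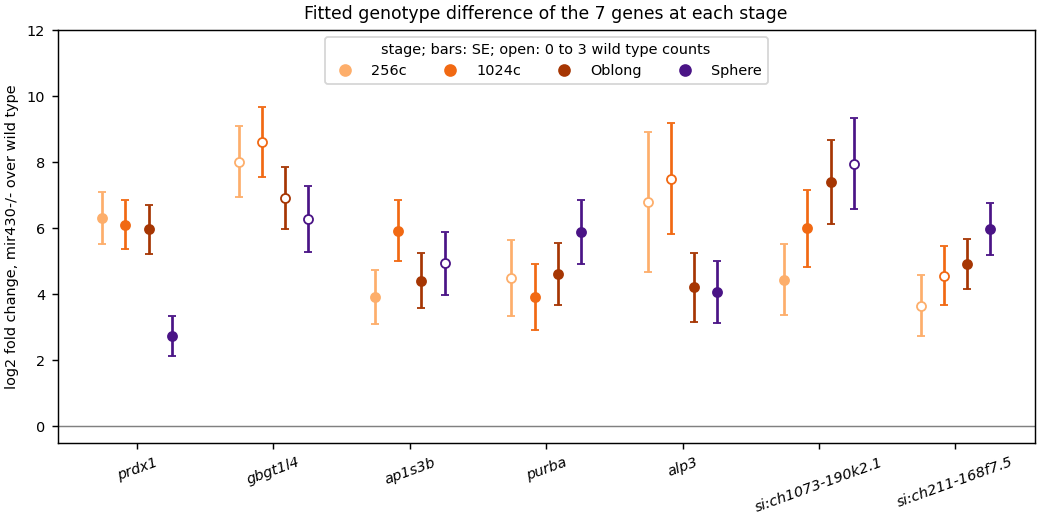
Fitted log2 fold change, mir430-/- over wild type, of each gene at the 4 stages (vertical axis), with the standard error as bars. Open points mark stages where wild type held 0 to 3 counts, and their height depends on the prior count of the fit. All 28 points lie above 0, the lowest being prdx1 at Sphere with 2.74.

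The authors' deposited table calls 25 of the 28 gene and stage pairs up-regulated. The 3 pairs that the authors' deposited table does not call are alp3 at 256c and Oblong and si:ch211-168f7.5 at 256c. In the authors' deposited table their adjusted p-values were 0.0274, 0.0136 and 0.0158, all under the 0.05 used here, and the highest among the 25 pairs it calls was 0.00945 (purba at 1024c).

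Between 256c and Sphere the 7 genes divided in the mutant. prdx1, gbgt1l4, ap1s3b and si:ch1073-190k2.1 fell, and for purba, alp3 and si:ch211-168f7.5 the fitted change was positive without passing the test. So 4 of 7 fell and 0 rose by edgeR's quasi-likelihood test, where 22.4% of all tested genes fell and 26.8% rose. The mutant libraries of both stages are among those that chose the genes, so the shares are not an independent comparison. At an unadjusted p under 0.05, 1 rose, and DESeq2 called 2 as risen, beside 38.6% of all tested genes by that tool. No share of all tested genes was computed at an unadjusted p, here or below, so such counts are not read as results. The median log2 change was -2.44 over the 7 genes and 0.57 over all tested genes.

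In the mutant, gbgt1l4 fell by 3.71 on the log2 scale (SE 0.73, adjusted p 0.00095 in edgeR's test with Benjamini-Hochberg adjustment, as for the values that follow). ap1s3b fell by 3.43 (SE 0.73, adjusted p 0.00141) and prdx1 fell by 2.44 (SE 0.60, adjusted p 0.00296). si:ch1073-190k2.1 fell by 2.71 (SE 0.96, adjusted p 0.0232). In each of these 4 genes every Sphere library of the mutant was below every 256c library of the mutant. The share of all tested genes with stages so separated was not computed, so nothing is read from the separation, here or below. The fitted change was 1.47 for purba (adjusted p 0.112), 1.11 for alp3 (adjusted p 0.273) and 1.47 for si:ch211-168f7.5 (adjusted p 0.0521). In si:ch211-168f7.5 all 3 Sphere libraries were above all 3 libraries at 256c in CPM. The adjusted p of this gene was 0.0372 without wild type Sphere replicate 1, a library outside this contrast that enters the shared spread. The fall of si:ch1073-190k2.1 was not called without mutant Sphere replicate 2 (adjusted p 0.0764) or mutant Sphere replicate 3 (adjusted p 0.0746). Nor was it called with DESeq2 size factors in place of TMM.

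These changes depend on how libraries are scaled. Scaled to the total count alone, in which the mitochondrial share takes part, the median log2 change of all tested genes in the mutant was 2.85, against 0.57 with TMM, and 8747 of all tested genes rose and 89 fell, against 3941 and 3307 with TMM. On that scale 0 of the 7 fell and 3 rose, by 3.52 (purba), 3.38 (alp3) and 3.61 (si:ch211-168f7.5) on the log2 scale. The fitted change stayed negative for prdx1 (-0.23), gbgt1l4 (-1.56), ap1s3b (-1.12) and si:ch1073-190k2.1 (-0.49), none of them called. With TMM over nuclear genes only, the median of all genes was 0.05, the same 4 genes fell and si:ch211-168f7.5 rose. The shares of all tested genes called in that fit are not given here.

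In wild type, 2 of the 7 fell between 256c and Sphere and 0 rose by edgeR's test, where 16.2% of all tested genes fell and 30.7% rose. At an unadjusted p under 0.05 0 rose, and DESeq2 called 0 as risen, beside 38.8% of all tested genes by that tool. ap1s3b fell by 4.45 on the log2 scale (SE 1.06, adjusted p 0.00249) and si:ch1073-190k2.1 by 6.23 (SE 1.41, adjusted p 0.00168). Both rest on few counts, 10 at 256c and 2 at Sphere for ap1s3b, and 19 and 1 for si:ch1073-190k2.1. The 7 were chosen as higher in the mutant, and the filter that kept them used the mutant libraries too. The shares of all tested genes are therefore not a like comparison. With only the wild type libraries of these stages fitted, all but prdx1 failed the filter and 0 fell. Without wild type 256c replicate 2, which held 16 of the 19 counts of si:ch1073-190k2.1 at that stage, its fitted change was -4.17 with an adjusted p of 0.0665, which leaves 1 of the 7 called. prdx1 had its highest wild type mean at Sphere, with 18, 15 and 43 counts in the 3 libraries against 3, 3 and 0 at 256c, and a fitted log2 change of 1.13 (SE 0.73) that did not pass (adjusted p 0.19). On the total count scale the median of all genes in wild type was 3.50, against 0.75 with TMM. There prdx1 and alp3 rose and only si:ch1073-190k2.1 fell. The shares of all tested genes called on that scale are not given here, so nothing is read from these counts. gbgt1l4 held 1 count in wild type at each of 256c and Sphere, so its wild type course could not be followed.

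**Figure D3:**
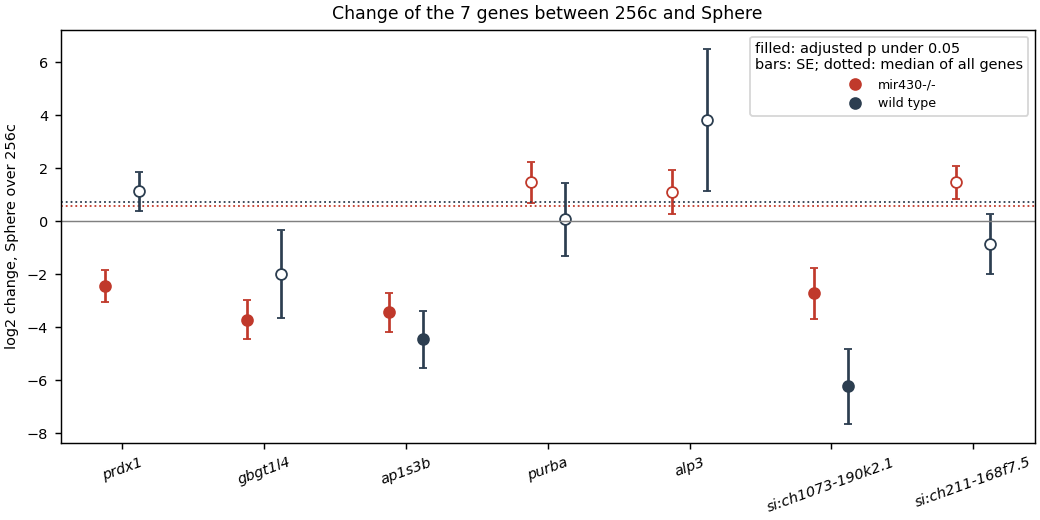
Log2 change from 256c to Sphere of each gene in mir430-/- (left point of a pair) and wild type (right point), with the standard error as bars, filled where the adjusted p was under 0.05. Dotted lines are the medians of all tested genes, 0.57 in the mutant and 0.75 in wild type. In the mutant 4 genes are filled and negative, from -3.71 for gbgt1l4 to -2.44 for prdx1, and in wild type ap1s3b and si:ch1073-190k2.1 are. The filled wild type points rest on few counts. With the wild type libraries of these stages alone, neither gene passed the filter.

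No single step from one stage to the next was called for any of the 7 genes in either genotype by edgeR's test. At an unadjusted p under 0.05 the mutant counts were 0 of 7 for 1024c over 256c, 1 for Oblong over 1024c and 4 for Sphere over Oblong. The 1 was a rise of si:ch211-168f7.5 and the 4 were falls. The wild type counts were 1, 0 and 2. There ap1s3b fell in the first and the last step, and prdx1 rose in the last. No share of all tested genes was computed at that threshold, so nothing is read from these counts. DESeq2 called 1 step in each genotype, gbgt1l4 lower at Sphere than at Oblong in the mutant and prdx1 higher at Sphere than at Oblong in wild type, beside 0.72% and 2.06% of all tested genes called in those directions by that tool. Without wild type Sphere replicate 1, edgeR's test called 1 step in wild type, ap1s3b lower at Sphere than at Oblong. Over all tested genes, edgeR called 3.34% higher and 0.00679% lower at 1024c than at 256c in wild type and 0 in each other step.

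The wild type libraries without IAA gave a second view of the same genes at lower depth, with 104079 to 637576 nuclear counts. gbgt1l4 and si:ch1073-190k2.1 had 0 counts in all 4. From 256c to Sphere prdx1 had 2, 2, 0 and 7 counts, and 7 was the highest count of the set in 1 such library. Over the 7 genes, 17 of 28 values were 0. There is no mutant library without IAA, so no comparison of genotypes can be made in such libraries.

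Some genes lying next to the 7 were also higher in the mutant, with most calls at 256c and 1024c. Among the 5 nearest genes on each side of every member, 70 in all, 27 passed the filter. By edgeR's test 5, 4, 1 and 0 of the 27 were higher in the mutant from 256c to Sphere, which is 18.5%, 14.8%, 3.70% and 0%. Over all tested genes 6.61%, 1.83%, 0.774% and 0.394% were higher at those stages. Lower in the mutant were 1, 1, 1 and 0 of the 27, beside 2.87%, 1.57%, 0.923% and 0.706% of all tested genes. The median log2 fold of the 27 was 0.40, 0.33, 0.74 and 0.04 from 256c to Sphere, beside 0.25, 0.16, 0.24 and -0.01 over all tested genes. The higher neighbours were gng5 and uck2b beside prdx1, acsl3b beside ap1s3b, h2az2a beside purba and ubxn1 beside si:ch211-168f7.5. At Sphere, where all 7 members still stood apart by the rule that chose them, edgeR called 0 neighbours as higher, 5 had an unadjusted p under 0.05, and DESeq2 called 3, acsl3b, gng5 and si:ch1073-340i21.3, beside 0.977% of all tested genes by that tool. For lower neighbours at Sphere these counts were 0, 1 and 0. The unadjusted counts have no share of all tested genes beside them. Scaled to total counts, the median log2 fold of all tested genes at 256c was 0.96, and 1901 genes were higher and 185 lower there, beside 974 and 423 with TMM. The neighbour counts at 256c and 1024c were the same on both scales.

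gng5, a G protein gamma subunit gene 127 kb from prdx1, had the largest fitted fold at 256c among the higher neighbours. Its mutant libraries ranged from 39.3 to 84.2 CPM at 256c, against 0.653 to 2.33 in wild type, with a log2 fold of 5.40 (SE 0.76, adjusted p 0.000485 in edgeR's test). The fold was 5.02 (SE 0.73, adjusted p 0.000249) at 1024c and 3.64 (SE 0.68, adjusted p 0.00376) at Oblong. At Sphere it was 1.78 and was not called (adjusted p 0.222). uck2b, a uridine-cytidine kinase gene 39.0 kb from prdx1, had 5.83 to 36.9 CPM in the mutant and 0 to 3.59 in wild type at 256c, with log2 folds of 3.38 (adjusted p 0.0157) there and 4.53 (adjusted p 0.00475) at 1024c. acsl3b, which encodes a long-chain acyl-CoA synthetase, lies 70.6 kb from ap1s3b. It had 9.63 to 31.3 CPM in the mutant and 1.63 to 2.44 in wild type at 256c, with log2 folds of 3.0 (adjusted p 0.00449) there and 3.70 (adjusted p 0.00127) at 1024c.

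The neighbours were thus on both sides of the members and not always the closest. zte38, 343 bp downstream of prdx1 on the same strand, was nearer than either called gene and was not called. It had 0 counts in both genotypes at 256c. Its log2 fold was positive at 1024c (3.36, adjusted p 0.259 by edgeR's test), Oblong (3.77, adjusted p 0.235) and Sphere (3.40, adjusted p 0.294). Mutant and wild type counts were 21 and 2 at 1024c, 39 and 2 at Oblong, and 69 and 5 at Sphere. At Sphere its mutant libraries had 0.281 to 2.26 CPM and its wild type libraries 0.0404 to 0.137. h2az2a, a histone variant gene on the opposite strand whose annotated start is 1.23 kb from that of purba, had 33.7 to 49.9 CPM in the mutant and 6.99 to 9.47 in wild type at 256c, with a log2 fold of 2.30 (SE 0.61, adjusted p 0.0182). ubxn1, which encodes a UBX domain protein, lies 76.8 kb from si:ch211-168f7.5 and had log2 folds of 3.27 (adjusted p 0.0202) at 256c and 3.77 (adjusted p 0.0154) at 1024c. map1lc3cl, nearer at 11.5 kb, was not called at any stage.

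zgc:165508, 17.3 kb downstream of alp3 on the same strand, was the neighbour lower in the mutant. It held 2 counts in the mutant and 57 in wild type at 256c, a wild type to mutant ratio of 51.9 (interval 13.7 to 439, adjusted p 0.00175 in edgeR's test). In the mutant it had 0 to 0.363 CPM and in wild type 5.13 to 6.99 CPM, the reverse of alp3 next to it. Its log2 fold was -3.51 (SE 0.87, adjusted p 0.0211 in edgeR's test) at 1024c and -4.94 (SE 0.92, adjusted p 0.00376) at Oblong. On the other side of alp3, CABZ01061894.1 at 9.10 kb was not called at any stage.

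The remaining nearest tested genes, cul3a (23.2 kb from ap1s3b), ckap2l (82.1 kb from purba), CABZ01067657.1 and si:ch1073-340i21.3 (25.5 and 13.9 kb from si:ch1073-190k2.1) and zgc:153018 (18.6 kb from si:ch211-168f7.5), were not called by edgeR with TMM scaling, the filter, no block and all 24 libraries. si:ch1073-340i21.3, on the strand of its neighbour, had 98 counts in the mutant and 5 in wild type at Sphere, with a log2 fold of 4.16 (adjusted p 0.0771 in edgeR's test). It was called there with total-count scaling, with no filter, with the replicate block, without wild type Sphere replicate 2 and by DESeq2. With the block it was also called at Oblong. ckap2l was called higher at 256c with no filter. None of the 10 neighbours of gbgt1l4 passed the filter, the highest of them having 19 counts over 24 libraries.

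Single libraries moved several of these calls. The share of all tested genes called in each such fit is not given here. The moves are therefore not read as results about the neighbours. gng5 and acsl3b were called under all 32 alternatives at the stages named. Without wild type 256c replicate 1 or without wild type 256c replicate 3, the count of higher neighbours at 256c was 2. uck2b at 256c was also lost without mutant 256c replicate 1, ubxn1 at 256c without mutant 256c replicate 2, and h2az2a at 256c without wild type 256c replicate 2 or mutant 256c replicate 3. At 1024c, ubxn1 was lost without replicate 1 or 2 of wild type or replicate 1 of the mutant at that stage. zgc:165508 at 1024c was lost without replicate 1 or 2 of wild type or replicate 1 or 3 of the mutant at that stage, which leaves 0 lower neighbours there. At Oblong the count of higher neighbours was 2 without wild type 256c replicate 3, wild type Sphere replicate 1 or mutant 256c replicate 1. At Oblong same-numbered libraries of the genotypes had correlations of 0.106 to 0.183, all above the cut of 0.1. With the number as a block 4 neighbours were higher there, uck2b, acsl3b, gng5 and si:ch1073-340i21.3. At Sphere 1 was called without wild type Sphere replicate 2.

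**Figure D4:**
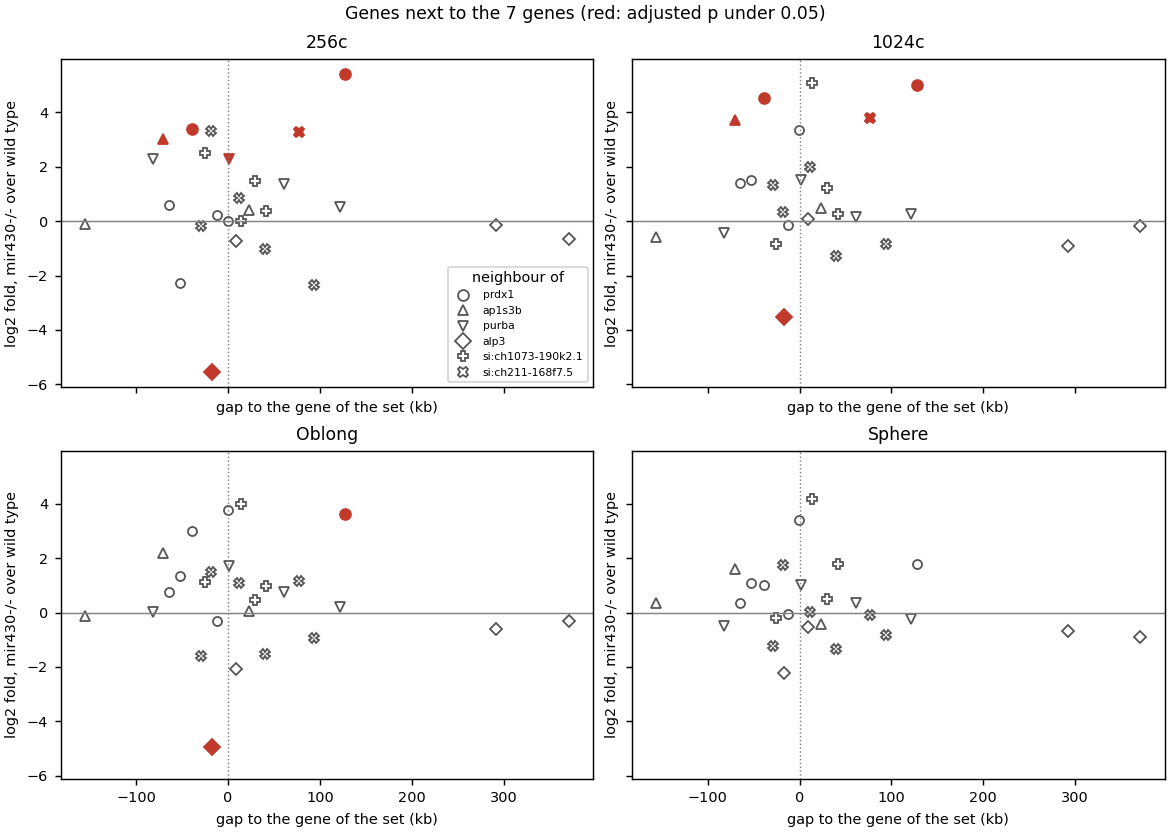
Log2 fold change, mir430-/- over wild type, of the 27 tested neighbours (vertical axis) against the gap to the gene of the set in kb (horizontal axis, negative toward lower coordinates), 1 panel per stage. Symbols give the gene of the set and red marks an adjusted p under 0.05. Red points above 0 number 5 at 256c, 4 at 1024c and 1 at Oblong, and zgc:165508 near alp3 is the red point below 0.

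Most relatives of the 7 genes by name did not pass the test between genotypes. Of 32 genes in the peroxiredoxin and thioredoxin, adaptor complex 1, Pur, alkaline phosphatase and gbgt1 families, 18 passed the filter. By edgeR's test 2, 2, 1 and 0 of the 18 were higher in the mutant in stage order (11.1%, 11.1%, 5.56% and 0%), beside 6.61%, 1.83%, 0.774% and 0.394% of all tested genes. At Sphere 1 had an unadjusted p under 0.05 and DESeq2 called 1, ap1b1. Lower in the mutant were 0 at every stage by edgeR and by DESeq2, with 0, 0, 0 and 0 at an unadjusted p under 0.05. The shares of all tested genes that were lower are those given for the neighbours. The median log2 fold of the 18 was 0.08, 0.61, 0.08 and -0.17 from 256c to Sphere.

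The adaptor complex had 2 of the called relatives. ap1b1, the large beta subunit of the same complex as ap1s3b, had 7.61 to 16.2 CPM in the mutant and 0.327 to 0.978 in wild type at 256c. Its log2 fold was 4.09 (SE 0.69, adjusted p 0.001 in edgeR's test) at 256c, 3.79 (SE 0.64, adjusted p 0.000915) at 1024c and 2.62 (SE 0.59, adjusted p 0.0192) at Oblong. The gene lies on chromosome 5, 0.968 Mb from gbgt1l4. ap1ar, a regulator associated with the complex, had 1.45 to 3.80 CPM in the mutant at 256c where no wild type library held a count (adjusted p 0.0046 by edgeR). Against 3 counts in wild type its scaled mutant counts were 8.42-fold higher, with error in the mutant counts left out. The other tested adaptor genes were not called, among them ap1g2, the most abundant as a mean over the 8 groups, with 12 CPM in the mutant and 12.6 in wild type at 256c.

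In the thioredoxin group the called gene was txnipa, an arrestin-related thioredoxin-interacting protein gene, at 1024c. Its mutant libraries had 1.95, 3.90 and 39.8 CPM in ascending order, against 0.219 to 1.26 in wild type, with a log2 fold of 4.50 (SE 1.11, adjusted p 0.0221 in edgeR's test). prdx2, the relative closest in name to prdx1 that passed the filter, had log2 folds of -0.08 at 256c and 1.03 at 1024c and was not called. purbb, alpl and gbgt1l1, the most abundant tested relatives of purba, alp3 and gbgt1l4 over the 8 groups, were not called by edgeR with TMM scaling and the filter. purbb had 70 counts in the mutant and 3 in wild type at 256c, with a log2 fold of 3.61 (SE 1.45, adjusted p 0.121 in edgeR's test), and was called higher there by edgeR with total-count scaling or with no filter on low counts and by DESeq2. gbgt1l1, at chr5:23702295-23715861 on the chromosome of gbgt1l4 but outside its 5 nearest genes on that side, had 1.49 CPM in the mutant and 2.47 in wild type at 256c. gbgt1l2 and gbgt1l3, which are among the 5 nearest genes on either side of gbgt1l4, had at most 8 counts over 24 libraries. ap1b1 at Oblong was lost without any 1 of wild type Oblong replicates 1, 2 and 3 or of mutant Oblong replicates 1 and 2, and txnipa at 1024c without any 1 of wild type 1024c replicates 1, 2 and 3 or without mutant 1024c replicate 2. These losses leave 0 called at Oblong and 1 at 1024c. The number of all tested genes called in those fits is not given here.

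Across the 24 IAA libraries the 7 genes were described by the correlation of their log2 CPM, for which the points share library, genotype and depth. Among the 21 pairs of members Pearson's r ran from 0.53 (ap1s3b with purba) to 0.92 (gbgt1l4 with ap1s3b). All 7 were chosen for the same genotype difference, which by itself gives positive values, also with outside genes that differ the same way. Of the outside genes named next, ENSDARG00000074085, trhde.2 and BX901907.4 met the same rule and zgc:153441 was just outside it. Likeness to outside genes is therefore not independent of the choice. Among genes outside the set, the most alike were tia1l, si:ch211-262i1.6 and zgc:153441 for prdx1 (r 0.909, 0.907 and 0.904). For gbgt1l4 they were ddost, ap1b1 and gng5 (r 0.941, 0.940 and 0.933). For ap1s3b they were zgc:175135, ENSDARG00000103225 and ptpn4b (r 0.959, 0.944 and 0.938). The pattern of purba was nearest to ENSDARG00000074085, BX546503.1 and CT573247.1 (r 0.928, 0.926 and 0.901). That of alp3 was nearest to trhde.2, CR954226.3 and BX901907.4 (r 0.95, 0.94 and 0.928). BX546503.1 and the genes named for alp3 lie on chromosome 4. The share of tested genes on that chromosome was not computed. si:ch1073-190k2.1 was nearest to extl2, lsm4 and chchd4b (r 0.900, 0.876 and 0.872). si:ch211-168f7.5 was nearest to ENSDARG00000074085, si:dkey-19a16.7 and bbox1 (r 0.910, 0.876 and 0.874).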

How the data were processed

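The deposited values are whole-number counts per gene made by the authors with no normalization, per the file headers. They are headed as filtered, and the sources used here do not say what was filtered out. Carry-over of unmarked RNA into the counts was not tested. The submitters' processing notes name Trimmomatic, HISAT, SAMtools, Picard, DESeq2 and featureCounts, with no versions, and the build GRCz11. The kit was stranded and the deposited counts are described as of proper orientation, but the sources used here do not give the counter's strand option. The authors' deposited table of DESeq2 comparisons holds, per the file headers, log2 fold changes, their standard errors (recorded here as a score), p-values, adjusted p-values and a mean normalized signal per gene. It was used only for its calls and adjusted p-values.

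One edgeR model (4.0.16, limma 3.58.1, R 4.3.3) with 8 group means was fitted to the 24 IAA libraries, with TMM scaling, filterByExpr, a quasi-likelihood test and Benjamini-Hochberg adjustment over 14732 genes, and calls at an adjusted p under 0.05. Standard errors come from the quasi-F statistic. DESeq2 1.42.0 was an alternative. The fit was also run on simulated data. Changes were planted there only in genes above a minimum mean count, so that run does not cover values of a few counts. Alternatives changed the scaling, filter, tool, block or libraries. A ratio on 1 to 3 counts has a 95% exact binomial interval, and a group at 0 is taken at 3 counts, with no interval for the other group.

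Members, lists and tests were chosen with earlier results of these data known. Named genes were the 7 members, neighbours (5 a side) that were called or nearest among those tested, family genes that were called or else the most abundant of their family, the 3 genes most alike to each member by Pearson's r of log2 CPM with a prior count of 0.5, and the 4 genes just outside the rule. Others named were chosen after their values were seen. Replicate numbers are shared between groups in the labels. Same-numbered libraries deviated together (every correlation above 0.1) for the genotypes at Oblong (0.106 to 0.183) and for 1024c with 256c in wild type (0.128 to 0.207). The same held for Sphere with Oblong in the mutant (0.463 to 0.641) and wild type (0.422 to 0.725). No correlation of differently numbered libraries is given for comparison, so pairing by number is not shown. The block on replicate number was fitted over all groups at once. It so also entered comparisons where not every correlation was above 0.1. Examples are mutant Sphere with 256c (-0.0655 to 0.0882) and the genotypes at Sphere (-0.0505 to 0.564). No genome was used here, so no sequence is printed.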

Additional observations from a re-analysis of the deposited data

How the results depend on the processing

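The genotype folds that chose the 7 genes moved in size with single libraries, as given beside them, and their sign under the 32 alternatives is not evidence, since the rule fixed it. In the mutant, the count of members that rose between 256c and Sphere was 2 with DESeq2 size factors, 3 with total-count scaling, 1 with TMM over nuclear genes, 2 with DESeq2 and 1 with the replicate block, against 0. The count that fell was 3 with DESeq2 size factors and 0 with total-count scaling, against 4. In wild type, 2 rose and 1 fell with total-count scaling, against 0 and 2, and 0 fell when only both stages were fitted, where only prdx1 passed the filter. Single steps called were 1 in wild type with total-count scaling and with DESeq2, and 1 in the mutant with DESeq2, against 0. The number of all tested genes called also moves with the setting, as given above for total-count scaling in the mutant. For most settings that number is not given here. The counts of members, neighbours and family genes per setting, here and below, are therefore not read as results about them.

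Neighbours higher at Oblong numbered 2 with DESeq2 size factors, nuclear TMM or no filter, 4 with DESeq2, 4 with the replicate block and 3 with both groups alone, against 1. At Sphere they numbered 1 with total-count scaling, no filter or the replicate block and 3 with DESeq2, against 0. Family genes higher at 256c numbered 4 with total-count scaling or no filter and 1 with both groups alone, against 2. With both groups alone ap1ar was not among the genes fitted, so its call was not tested there. At 1024c they numbered 1 with both groups alone, against 2, at Oblong 0 with total-count scaling, against 1, and at Sphere 1 with DESeq2, against 0. The replicate block changed no other count by over 1.5 times. Apart from that of ap1ar, the cause of these shifts was not tested.

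Leaving out 1 library at a time gave 1 to 2 members that fell in wild type and 3 to 4 in the mutant, 0 to 0 that rose in wild type and 0 to 1 in the mutant, and 0 to 1 single steps in wild type and 0 to 0 in the mutant. Higher neighbours numbered 2 to 5 at 256c, 3 to 4 at 1024c, 1 to 2 at Oblong and 0 to 1 at Sphere, and lower ones 1 to 1, 0 to 1, 1 to 1 and 0 to 0. Higher family genes numbered 2 to 2, 1 to 2, 0 to 1 and 0 to 0, and lower ones 0 throughout. Leaving out both Sphere libraries with fewer mitochondrial than nuclear counts, an alternative chosen after seeing the data, ended the mutant fall of si:ch1073-190k2.1 (adjusted p 0.0963 by edgeR's quasi-likelihood test) and left the other 3 falls called. Wild type values rest on few counts for most members.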

Other observations

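The other 5 genes that met the same rule are given as values, with no test. ENSDARG00000074085 on chromosome 22 had fitted log2 folds, mutant over wild type, between 7.99 and 8.97 at the 4 stages. Those of megf6a on chromosome 23 were between 4.41 and 7.90. CR388046.4 on chromosome 7 ran from 3.93 to 9.25. BX901907.4 and trhde.2 lie on chromosome 4, as the mir430 genes do, with folds from 5.55 to 8.25 and from 4.55 to 7.90.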
